A study of Sus scrofa with 8 samples.

Results

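The genes described here are 10 that act in prostaglandin synthesis, breakdown and reception, measured in the sow oviduct, namely PTGS1, PTGS2, PTGES, PTGES3, PTGIS, PTGDS, PTGFR, PTGER2, PTGR1 and HPGD. Every probe set whose only gene symbol in the array annotation is among them was taken, which gave 10 probe sets for 7 of the 10 genes, out of 23999 probe sets tested. PTGS1, PTGES3 and PTGFR had 2 probe sets each, and PTGS2, PTGES, PTGDS and PTGR1 had 1 each. PTGIS, PTGER2 and HPGD had no probe set under their symbol, gene number or older names and are named only. Where a gene had 2 probe sets, a marks the brighter one and b the other, and the figures give the array's own name of each.

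Scraped mucosal cells were collected from both oviducts of 4 sows 24 h after laparoscopic insemination, and RNA of each oviduct was hybridised to 1 Affymetrix Porcine array. Within each sow, flow-sorted Y-spermatozoa had been placed in the one oviduct (4 arrays, Y1 to Y4) and flow-sorted X-spermatozoa in the contralateral oviduct (4 arrays, X1 to X4). The number in an array's name is the replicate number of its label and was read as the sow. The comparison asks whether the oviduct responds to the sex chromosome that the spermatozoa carry. The animals were weaned Landrace × Large White crossbred sows in oestrus that had not yet ovulated, the doses of each sperm type were pooled from several boars, and sorting left a minority of the other sperm type in each dose. Both groups thus share the surgery, the stapled uterine horns, the fluorescent sperm stain and the presence of spermatozoa, and no oviduct without spermatozoa was analysed here.

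Prostaglandins are short-lived lipid mediators made from arachidonic acid that phospholipases release from membranes. The cyclooxygenases PTGS1 and PTGS2 convert it to prostaglandin H, terminal synthases turn prostaglandin H into prostaglandin E, F, D or prostacyclin, and these act on G protein-coupled receptors of nearby cells before dehydrogenases and reductases inactivate them. In the oviduct they are known for their actions on smooth muscle contraction, on ciliary beating and so on the transport of gametes.

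None of the 10 probe sets passed the test between oviducts with Y-spermatozoa and oviducts with X-spermatozoa. In limma 0 of 10 had an unadjusted p under 0.05, where 3.56% of all 23999 probe sets did. The limma adjusted p was 1 for each of the 10, and 0 of all probe sets (0%) passed an adjusted p of 0.05. The signals of both groups overlapped for each of the 10, against 2.3% of all probe sets without overlap, and the difference had the same sign in 4 of 4 sows for 0 of 10, against 13.2% of all. The median log2 difference (Y-spermatozoa minus X-spermatozoa) over the 10 was 0.01, and it was 0.00 over all probe sets. With the sow as a block, 0 of 10 passed again, where 5.09% of all did, and the limma adjusted p of the 10 was 0.928 to 0.999.

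Between sows, 2 of the 10 probe sets, both of PTGES3, had an unadjusted p under 0.05 in a limma F-test. That share was 14.2% among all probe sets, and 0 of the 10 passed after adjustment. PTGFR-a (unadjusted p = 0.0619) and PTGDS (unadjusted p = 0.0683) narrowly missed it in the same F-test. The 2 oviducts of sow 1 had the highest PTGES3 signals of all 8 arrays on both of its probe sets, whichever sperm type they had received. The signals are the linear values deposited for each array, and differences were taken on log2 of quantile-normalized signals. A probe set was called above background on an array where its signal was over the 95th percentile of 64 reporter probe sets of that array.

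The deposited scaling gives every array the same trimmed mean, so alike overall brightness was built in. Their median signal was 38.7 to 39.9 with Y-spermatozoa and 39.9 to 41.2 with X-spermatozoa. The hybridisation controls, in mean log2 after quantile normalization, were 9.82 to 10.06 with Y-spermatozoa and 9.65 to 9.82 with X-spermatozoa. The background level was 8.4 to 12.5 with Y-spermatozoa and 10 to 12.4 with X-spermatozoa. Each array correlated most with the other oviduct of its own sow, with r of 0.956 to 0.958 over the probe sets, which do not count as separate replicates. Epithelial RNA was present, and OVGP1, the secreted oviductal glycoprotein, had signals of 7769 to 9315 with Y-spermatozoa and 5841 to 8469 with X-spermatozoa. Smooth muscle markers were also bright and varied most of the marker lists, with summed signals of 2201.5 to 8902.8 in oviducts with Y-spermatozoa and of 3474.9 to 10540.9 in oviducts with X-spermatozoa. In the whole data set 389 probe sets (1.62%) were higher and 466 (1.94%) lower with Y-spermatozoa at an unadjusted limma p of 0.05, and 271 were higher and 631 lower when the deposited scaling was kept.

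The cyclooxygenases lay at background. PTGS1, the form that many tissues make steadily, had signals of 1.7, 7.6, 10.4 and 6.8 on arrays Y1 to Y4 and of 7.3, 4.2, 9.0 and 1.0 on arrays X1 to X4 with PTGS1-a. The single value above its array's background was Y3, by a small margin (10.4 against a level of 9.9). PTGS1-b had 1.4, 1.8, 2.7 and 2.4 with Y-spermatozoa and 1.0, 7.9, 1.7 and 2.3 with X-spermatozoa, all 8 below background. PTGS2, the inducible cyclooxygenase that rises at ovulation and in inflammation, had 4.7, 1.6, 5.8 and 7.0 with Y-spermatozoa and 5.5, 5.5, 5.9 and 6.2 with X-spermatozoa, again all 8 below background. Values at this level carry no order, so no fold is given for either gene, and whether the mRNA was absent or these probes read it poorly cannot be told from the signals.

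**Figure D1:**
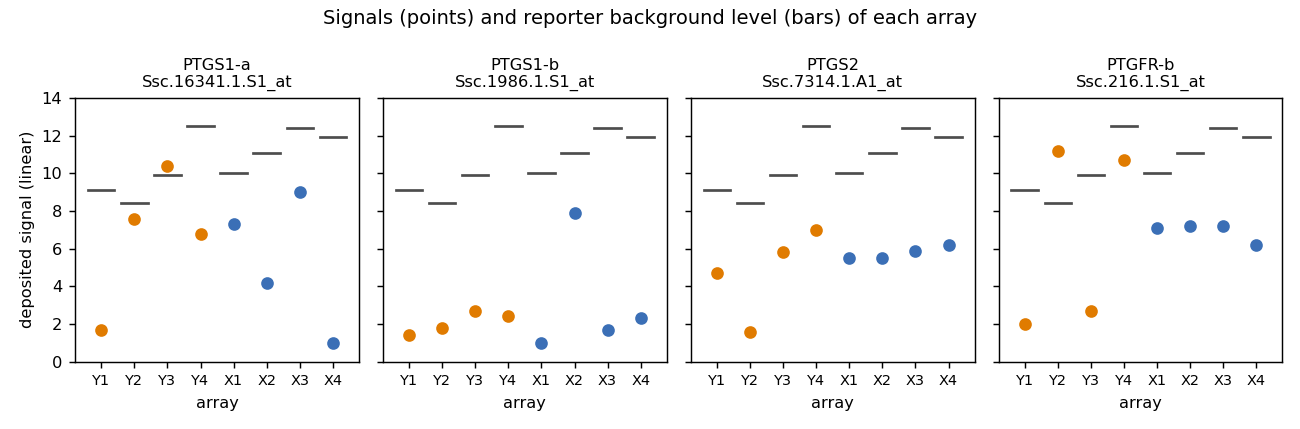
Deposited linear signals (vertical axis) of the 4 probe sets that were not above background on all arrays, with 1 point per array (Y-spermatozoa arrays Y1 to Y4 on the left of each panel, X-spermatozoa arrays X1 to X4 on the right) and a bar at each array's background level. PTGS1-a lay above the bar on 1 of 8 arrays and PTGS1-b on 0, PTGS2 on 0 and PTGFR-b on 1.

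Among the terminal synthases, PTGES, the membrane-bound prostaglandin E synthase, was measured with little spread. It had signals of 27.8, 29.0, 23.9 and 28.7 on Y1 to Y4 and of 26.2, 23.4, 28.7 and 26.7 on X1 to X4. The lowest array of each group lay below the 6 other arrays, Y3 with Y-spermatozoa and X2 with X-spermatozoa, and the groups overlapped. The means were 27.4 ± 2.36 with Y-spermatozoa and 26.3 ± 2.19 with X-spermatozoa (SD, n = 4 each), the log2 difference was 0.10 (SE 0.12, 95% interval -0.17 to 0.38) and the fold was 1.07 (0.888 to 1.30). In bulk RNA, fewer cells of a type and less RNA per cell cannot be told apart, here and for the genes below.

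PTGES3 encodes a cytosolic prostaglandin E synthase that is also known as a co-chaperone of HSP90, and both of its probe sets were above background on all 8 arrays. With PTGES3-b the signals were 625, 238.6, 206.9 and 274.2 on Y1 to Y4 and 656.9, 231.1, 209.7 and 255.0 on X1 to X4. Both oviducts of sow 1 stood far above the other 6, which lay close together whatever the sperm type. The group means were 336 ± 195 with Y-spermatozoa and 338 ± 213 with X-spermatozoa (SD, n = 4 each), with a log2 difference of 0.01 (SE 0.47, 95% interval -1.08 to 1.11). With the sow as a block the log2 difference was 0.01 again, but its interval shrank to -0.23 to 0.25 (SE 0.09).

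PTGES3-a had signals of 587.3, 507.1, 418.6 and 469.9 on Y1 to Y4 and of 620.7, 441.1, 389.8 and 391.9 on X1 to X4. Sow 1 was again the highest on both sides, by less, and Y2 came next. The means were 496 ± 71.0 with Y-spermatozoa and 461 ± 109 with X-spermatozoa (SD, n = 4 each), and the log2 difference was 0.11 (SE 0.19, 95% interval -0.32 to 0.54). Sow 1 alone had the lower signal on the Y-spermatozoa side, and the other 3 sows the higher.

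PTGDS, the lipocalin-type prostaglandin D synthase, had signals of 258.6, 325.8, 500.3 and 232.3 on Y1 to Y4 and of 283.4, 328.6, 307.6 and 185.2 on X1 to X4. Array Y3 was the highest by a wide margin and X4 the lowest, while the other 6 were mixed between the groups. The means were 329 ± 121 with Y-spermatozoa and 276 ± 63.4 with X-spermatozoa (SD, n = 4 each), and the log2 difference was 0.21 (SE 0.28, 95% interval -0.45 to 0.88). PTGDS was higher with Y-spermatozoa in 2 sows and lower in 2, and without Y3 the log2 difference was -0.01.

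**Figure D2:**
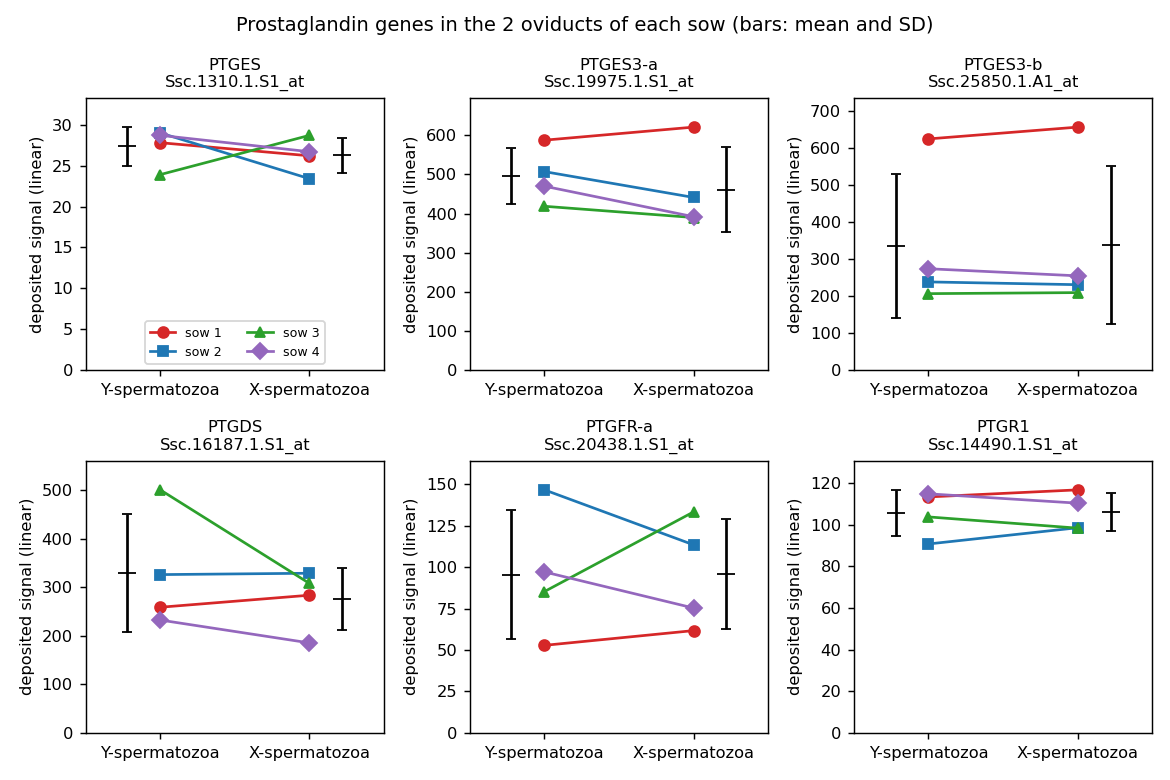
Deposited linear signals (vertical axes from 0) of the 6 probe sets above background on all arrays, with oviducts that received Y-spermatozoa on the left and X-spermatozoa on the right of each panel. Coloured lines join the 2 oviducts of a sow and black bars give the mean and SD of 4 arrays. Sow 1 (red) lay apart on both sides for PTGES3, at 625 and 656.9 with PTGES3-b, and lines cross in most panels.

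The receptor with a signal was PTGFR, which binds prostaglandin F and contracts smooth muscle. PTGFR-a had signals of 52.8, 146.6, 85.2 and 97.1 on Y1 to Y4 and of 61.7, 113.4, 133.3 and 75.3 on X1 to X4. Both arrays of sow 1 were the lowest of all 8, Y2 and X3 were the highest, and the groups covered nearly the same range. The means were 95.4 ± 38.9 with Y-spermatozoa and 95.9 ± 33.2 with X-spermatozoa (SD, n = 4 each), with a log2 difference of -0.02 (SE 0.36, 95% interval -0.86 to 0.82) that became 0.00 with arrays centred on their median. Within sows the log2 difference ran both ways, at 0.39 in sow 2 and 0.39 in sow 4 against -0.63 in sow 3 and -0.21 in sow 1.

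PTGFR-b had 2.0, 11.2, 2.7 and 10.7 with Y-spermatozoa and 7.1, 7.2, 7.2 and 6.2 with X-spermatozoa. It was above background on 1 of 8 arrays, Y2, where the background level was 8.4, and no fold is given. Array Y4, at 10.7, had nearly the same signal but a higher background level, 12.5.

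Breakdown was represented by PTGR1, a prostaglandin reductase that acts on keto-prostaglandins and inactivates a leukotriene. It had signals of 113.4, 90.8, 103.8 and 114.9 on Y1 to Y4 and of 116.8, 98.6, 98.4 and 110.4 on X1 to X4. The arrays of sows 1 and 4 were the higher ones on both sides and the groups overlapped. The means were 106 ± 11.1 with Y-spermatozoa and 106 ± 9.10 with X-spermatozoa (SD, n = 4 each), and the log2 difference was 0.00 (SE 0.12, 95% interval -0.28 to 0.29), a fold of 1.00 (0.822 to 1.23), with a value of -0.01 under the deposited scaling. Without the block, PTGES and PTGR1 had the narrowest intervals of the members above background. With the sow as a block PTGES3-b had the narrowest.

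**Figure D3:**
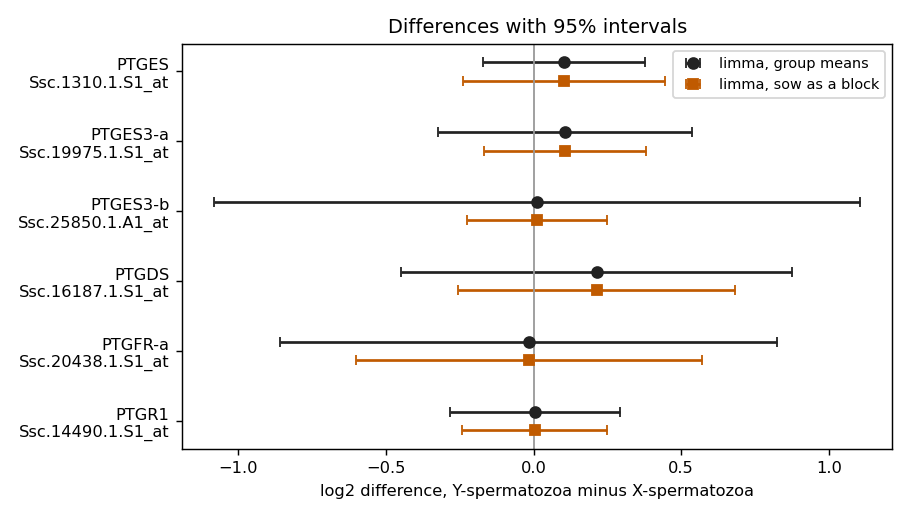
Log2 differences (horizontal axis, Y-spermatozoa minus X-spermatozoa) with 95% intervals from limma for the 6 probe sets above background on all arrays, from the group means (black circles) and with the sow as a block (orange squares), n = 4 arrays a group. Every interval includes 0, and the block narrowed that of PTGES3-b from -1.08 to 1.11 down to -0.23 to 0.25.

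The design also allows the sows to be compared, each with its 2 oviducts, and there PTGES3-b had the smallest p of the 10. In a moderated F-test of the 3 sow terms (limma, with the sperm type in the model), both PTGES3 probe sets and 0 of the other 8 had an unadjusted p under 0.05. That is 2 of 10, where 14.2% of all probe sets did, and 2 of the 6 above background, where 13.8% did. PTGES3-b had an adjusted p = 0.146 in limma, and 57 of 23999 probe sets (0.238%) had an F-test p as small as its own. The sow means of this probe set ranged over 1.62 on the log2 scale, while its largest difference between the 2 oviducts of a sow was 0.11. Sow 1 averaged 641 and the other 3 sows 236, which is 2.72 times as high.

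With the other PTGES3 probe set sow 1 averaged 604 and the other sows 436, a ratio of 1.38, and the F-test gave an adjusted p = 0.351 in limma. The probe sets thus placed the same sow on top but differed in how far. That sow 1 was the sow apart was seen in the values and not set beforehand. Both arrays of sow 1 lay above all 6 others for 6.43% of all probe sets, and by at least 1 on the log2 scale in the mean for 1.18%, while for 24.1% both arrays of some sow lay above all 6 others. Without sow 1 neither PTGES3 probe set kept an unadjusted p under 0.05 (adjusted p = 0.496 for PTGES3-b and adjusted p = 0.647 for PTGES3-a in limma), and PTGES3-a also lost it without any 1 of the other sows.

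The adjusted p of PTGES3-b between sows varied with the processing. It passed 0.05 in limma with a pseudocount of 16 (0.00595), with a floor at the background level (0.00397), among the probe sets above the median signal (0.00232), among those above background on all arrays (0.0105) and with a trend in the moderation (0.0114). Over 12 alternatives it ranged from 0.00232 to 0.496, the highest being that without sow 1. PTGFR-a (adjusted p = 0.368) and PTGDS (adjusted p = 0.374) missed an unadjusted 0.05 between sows in limma and passed it under the same 5 treatments, PTGFR-a also without sow 3. PTGR1 (adjusted p = 0.530) and PTGES (adjusted p = 0.956) missed it under all treatments that were run.

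**Figure D4:**
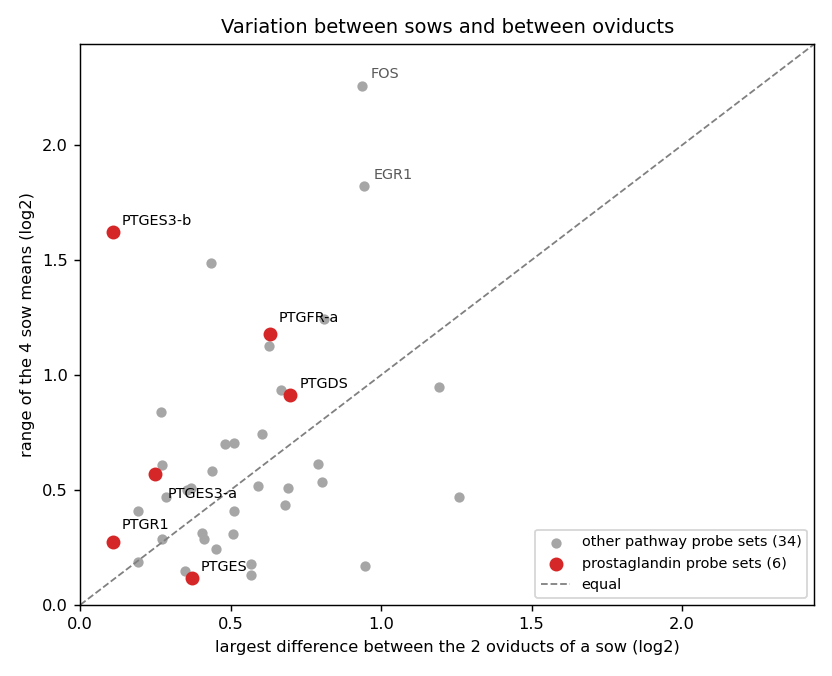
Range of the 4 sow means (vertical axis, log2) against the largest difference between the 2 oviducts of a sow (horizontal axis, log2) for the 6 prostaglandin probe sets (red) and 34 other pathway probe sets (grey) above background on all arrays, with a dashed line of equality. PTGES3-b lay at 1.62 against 0.11, and 5 of the 6 red points lay above the line, against 52.8% of all probe sets above background on all arrays.

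For 5 of the 6 probe sets above background, and 5 of all 10, the sow means ranged over more than the largest difference between oviducts, which held for 52.8% of all probe sets above background and for 44.3% of all. PTGES was the exception, with a range of 0.12 between sows and a largest difference of 0.37 between oviducts, in sow 2. For PTGFR the values were 1.18 and 0.63, for PTGDS 0.91 and 0.70, for PTGES3-a 0.57 and 0.25, and for PTGR1 0.27 and 0.11. These are descriptions of 4 sows.

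Signals of PTGFR moved in part with those of smooth muscle markers, and of stromal markers, from array to array. The order of PTGFR-a from high to low was Y2, X3, X2, Y4, Y3, X4, X1 and Y1, and 8 of the 10 smooth muscle probe sets above background had the same 4 arrays on top. Some of the 10 are of the same gene (TPM2, ACTG2), and the share of all probe sets with these 4 arrays on top was not computed. ACTA2, the actin of smooth muscle, had 766.5, 2562.3, 1111.4 and 2651.0 with Y-spermatozoa and 1178.8, 3359.0, 3148.3 and 1925.5 with X-spermatozoa. Array Y1 was the lowest of all 8 for both genes, and ACTA2 did not pass the test between groups (log2 difference -0.62, 95% interval -1.75 to 0.50). On Y3 the 2 genes differed. There PTGFR-a lay near its own mean over the arrays (-0.09 on the log2 scale), while ACTA2 lay at -0.70 and MYLK, another of the markers, at 0.18.

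The smooth muscle list had 12 probe sets for 7 of 8 genes, MYH11 being the one without, and a second DES probe set lay below background on all arrays. Its summed signal was 2201.5, 7900.1, 2830.2 and 8902.8 on Y1 to Y4 and 3474.9, 10540.9, 9212.9 and 5338.0 on X1 to X4. Stromal markers ran similarly, with sums of 3175.2 to 6746.1 with Y-spermatozoa and 4288.6 to 5333.0 with X-spermatozoa, and Y1 and Y3 as the lowest arrays. The 4 arrays with the highest stromal sum, Y2, Y4, X2 and X3, were also the 4 highest of PTGFR-a. The match was thus not particular to smooth muscle markers. The part of these cells in the PTGFR values was not tested.

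**Figure D5:**
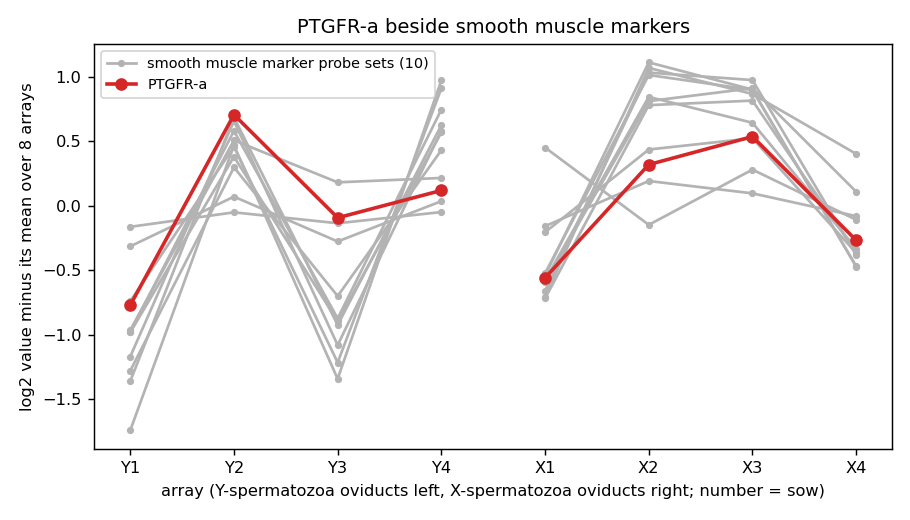
Log2 values minus the probe set's own mean over 8 arrays (vertical axis) for PTGFR-a (red) and 10 smooth muscle probe sets above background (grey) on arrays Y1 to Y4 (left) and X1 to X4 (right), where the number gives the sow. PTGFR and most of the markers were high on Y2, Y4, X2 and X3, and 8 of the 10 had these 4 arrays on top. The share of all probe sets that did was not computed.

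PTGDS followed ciliated cell markers in part. Its 4 highest arrays, Y3, X2, Y2 and X3, were also the 4 with the highest sum of the ciliated list, which had 4 probe sets for 3 of 8 genes. That sum was 2312.9, 2477.4, 2780.5 and 2046.5 on Y1 to Y4 and 2190.3, 2386.9, 2367.2 and 1943.7 on X1 to X4, so that Y3 was the highest and X4 the lowest for the sum as for PTGDS. Taken singly, 1 of the 3 probe sets above background (CAPS, TPPP3) had the same 4 arrays on top. The share of all probe sets that did was not computed. The leukocyte list had the same 4 arrays on top, in the order Y2, X2, Y3 and X3, with sums of 92.2 to 145.2 with Y-spermatozoa and 93.1 to 115.9 with X-spermatozoa and 3 of its 8 probe sets above background on all arrays, so that the match was not particular to ciliated markers. The ciliated sum spanned far less than PTGDS did, FOXJ1, the regulator of ciliation, was among the genes with no probe set, and the part of either cell type in the PTGDS values was not tested.

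The genes most like PTGFR over the 8 arrays, by the root mean square difference of log2 values each centred on its own mean, were DLC1 (0.145), SRSF6 (0.161), DKK3 (0.166), DCN (0.172) and TFPI2 (0.173), out of 5935 probe sets with a symbol and a signal above the median. DLC1 had 30.1, 68.2, 49.3 and 50.2 with Y-spermatozoa and 27.7, 51.1, 64.1 and 34.5 with X-spermatozoa, so it too was lowest in sow 1. DCN, decorin of the extracellular matrix, is on the stromal list and was highest on Y2 and Y4. The same ranking for PTGS1 and PTGS2 was led by MAP4 (0.725) and SF3A1 (0.297), but the cyclooxygenase values compared there lay at background.

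Chosen after the values were seen, the same ranking was made for PTGES3 and PTGDS. The gene most like PTGES3-b was SERPINA1, the protease inhibitor alpha-1-antitrypsin, with a root mean square difference of 0.192. Its signals were 446.8, 139.0, 174.6 and 157.6 on Y1 to Y4 and 388.7, 169.4, 161.3 and 182.7 on X1 to X4, with both arrays of sow 1 on top here as well. LMBRD2 (0.261), RGL2 (0.275), PSMB8 (0.283), a subunit of the immunoproteasome, and TTC8 (0.286) came next. For PTGDS the nearest were WDR34 (0.151), a subunit of a dynein motor, EFCAB12 (0.152), LOC100524999 (0.157), ATP9A (0.17) and C3H2orf81 (0.179).

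The rest of the pathway was taken from 5 lists of 62 probe sets for 43 genes, and 0 of the 62 passed an unadjusted limma p of 0.05 between Y-spermatozoa and X-spermatozoa, with a median log2 difference of -0.01. With the sow as a block 1 was higher, a PPARD probe set above background on 5 of 8 arrays, and 1 lower, an EGR1 probe set (adjusted p = 0.895 for both in limma). PPARD encodes a nuclear receptor for lipids, and the probe set of it that was above background on all 8 arrays had a log2 difference of the opposite sign, -0.18 (95% interval -0.64 to 0.28), while a further one was above background on 2 of 8 arrays and gives no order. The other EGR1 probe set above background on all 8 arrays had a log2 difference of -0.17 (95% interval -0.80 to 0.47). A further EGR1 probe set, above background on 3 of 8 arrays, had 0.70. Between sows 16 of the 62 had an unadjusted p under 0.05 in the F-test, where 14.2% of all 23999 probe sets did, and 0 of the 62 passed after adjustment.

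Of the other prostanoid synthases, receptors and reductases, 7 of 17 genes had probe sets, and 0 of 11 probe sets passed between groups. PTGFRN, a membrane protein that lowers ligand binding to PTGFR, had signals of 237.2, 226.8, 109.7 and 172.0 on Y1 to Y4 and of 150.4, 210.2, 122.0 and 162.3 on X1 to X4 with its brightest probe set. Both arrays of sow 3 were its lowest and the groups overlapped, with a log2 difference of 0.18 (SE 0.29). A further PTGFRN probe set had 106.1, 122.4, 47.7 and 136.8 with Y-spermatozoa and 80.8, 109.1, 52.0 and 78.7 with X-spermatozoa, again lowest in sow 3 (limma adjusted p = 1 between groups and adjusted p = 0.287 between sows). PTGFR itself had its lowest values in sow 1, so that receptor and regulator were lowest in different sows.

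PTGR2, another prostaglandin reductase, averaged 489 ± 51.1 with Y-spermatozoa and 460 ± 42.4 with X-spermatozoa (SD, n = 4 each), a log2 difference of 0.07 (SE 0.12). AKR1CL1, an aldo-keto reductase of the family that makes prostaglandin F, had 36.4, 16.8, 26.8 and 60.4 on Y1 to Y4 and 39.5, 20.2, 24.3 and 45.1 on X1 to X4 with 1 of its probe sets. Sow 4 was its highest and sow 2 its lowest on both sides (limma adjusted p = 1 between groups and adjusted p = 0.198 between sows), an order that a brighter AKR1CL1 probe set did not show (adjusted p = 0.991 between sows in limma). TBXAS1, thromboxane synthase, averaged 14.9 ± 4.25 with Y-spermatozoa and 15.7 ± 2.91 with X-spermatozoa (SD, n = 4 each), and the receptor PTGER3 was above background on 2 of 8 arrays. AKR1C1 was above background on 3 arrays and CBR1, a carbonyl reductase, on 0, although CBR1 had an unadjusted p under 0.05 between sows.

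On the supply of arachidonic acid, 0 of 13 probe sets passed between groups. PLA2G7, which cleaves platelet-activating factor, averaged 1355 ± 387 with Y-spermatozoa and 1346 ± 318 with X-spermatozoa (SD, n = 4 each) and had an unadjusted p under 0.05 between sows (adjusted p = 0.261 in limma), with its lowest signals in both oviducts of sow 3, at 782.1 and 921.6. Transport and the leukotriene branch had 0 of 6 and 0 of 5 probe sets that passed between groups. Between sows, 1 probe set of SLCO3A1, an organic anion transporter (adjusted p = 0.297 in limma), ALOX5AP (adjusted p = 0.292 in limma) and ALOX15, a lipoxygenase that was above background on 0 of 8 arrays (adjusted p = 0.14 in limma), had an unadjusted p under 0.05. The brightest SLCO3A1 probe set did not (adjusted p = 0.44 in limma). The leukotriene receptor CYSLTR2 was above background on all 8 arrays and CYSLTR1 on 2, and the groups overlapped for both (limma adjusted p = 1). ALOX5AP, which presents arachidonic acid to a lipoxygenase, averaged 39.7 ± 11.9 with Y-spermatozoa and 34.5 ± 6.46 with X-spermatozoa (SD, n = 4 each), with the same sign in 4 of 4 sows, and did not pass (limma adjusted p = 1, and adjusted p = 0.902 with the sow as a block).

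Among inducers and effectors of prostaglandin signalling, 8 of 27 probe sets had an unadjusted p under 0.05 between sows, where 14.2% of all probe sets did, and 0 passed after adjustment. They were that of the immediate early gene FOS, 1 of 3 of EGR1, another such gene, both of the cytokine IL1A, and 1 each of IL6, CREB1, EDNRB and NFKBIA. The IL1A, IL6, CREB1 and EDNRB probe sets among them were not above background on all arrays. FOS had signals of 123.7, 510.0, 252.2 and 961.1 on Y1 to Y4 and of 236.2, 650.9, 261.8 and 707.8 on X1 to X4 (limma adjusted p = 1 between groups and adjusted p = 0.223 between sows). It was lowest in sow 1 and highest in sow 4 on both sides. IL1B, a cytokine that induces PTGS2, averaged 38.5 ± 6.62 with Y-spermatozoa and 46.3 ± 9.03 with X-spermatozoa (SD, n = 4 each) with its brighter probe set, the same sign in 4 of 4 sows, and did not pass (log2 difference -0.23, 95% interval -0.64 to 0.19). The endothelin receptors EDNRA and EDNRB (with its brighter probe set) were above background on all 8 arrays, the oxytocin receptor OXTR on 5 and PPARG, a nuclear receptor, on 0, and the groups overlapped for each (limma adjusted p = 1).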

How the data were processed

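RNA of scraped oviduct cells from 4 sows was measured on 8 Affymetrix Porcine arrays, 4 with Y-spermatozoa and 4 with X-spermatozoa, grouped and numbered by the labels. As the authors deposited it, each intensity is a linear MAS5 (version 5.1) signal, and every array has a trimmed mean of 100.0. The methods name RMA, which needs probe-level values not used here, and detection calls were not used either. The signals were quantile normalized, values under 1 were set to 1, log2 was taken, and 23999 probe sets (without 124 AFFX controls) were fitted with limma 3.58.1 in R 4.3.3 on group means, two-sided, with Benjamini-Hochberg adjustment over all of them. Differences between sows were tested with a moderated F-test. The labels give 1 array of each group the same replicate number but name no sow, and that number was read as the sow. Deviations from the group means correlated by 0.187, 0.177, 0.144 and 0.132 within sows 1 to 4, so the sow was used as a block in an alternative. Gene symbols are those of the platform annotation, where 10099 probe sets have 1 symbol, 198 several and 13826 none.

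All 10 prostaglandin genes were given with every probe set. Other pathway genes were named where an unadjusted p was under 0.05 between groups, with or without the block, or between sows, or where they are synthases or receptors, and genes most alike were ranked for the 3 genes whose brighter probe set had the largest spread over the arrays (PTGS1, PTGS2 and PTGFR), a rule that leaves out PTGES3-b. Genes named beyond this, such as IL1B, ACTA2 and the genes ranked for PTGES3 and PTGDS, were picked after their values were seen. The members and lists were chosen with earlier results of these data known. The alternatives are another scaling, a pseudocount, floors, filters, a trend, a covariate of hybridisation controls, the block and leaving out arrays or sows. The scripts were tested on simulated data, and the number of arrays limits the precision. Figures were drawn with matplotlib 3.10.9 in Python 3.11.15. No sequence is printed, since the tables used held none.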

Additional observations from a re-analysis of the deposited data

Results flagged for a closer look

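PTGES3-b had a signal of 625 on Y1, far from the other arrays with Y-spermatozoa, of which the nearest was 274.2. On X1 it had 656.9, far from the other arrays with X-spermatozoa, of which the nearest was 255.0. The gap was 0.839 of the range among the arrays with Y-spermatozoa and 0.899 among those with X-spermatozoa, both over Dixon's 95% limit for 4 samples. These were 2 of 12 groups looked at on the linear signals, where chance gives about 1 in 20, and both arrays come from sow 1. The Y-spermatozoa and X-spermatozoa groups of a probe set share the same sows, so the 2 flags are not independent.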

How the results depend on the processing

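No prostaglandin probe set passed an unadjusted p of 0.05 between Y-spermatozoa and X-spermatozoa in any of the 23 alternatives, among them the sow as a replicate block (1222 probe sets in all, against 855 without it), which changed the call of no member. The 855 became 1459 with the sow as a random block, 311 where only the brighter probe sets were tested, which are fewer (108 higher and 203 lower with Y-spermatozoa), and 767 to 1029 without 1 array. Signs of log2 differences near 0 turned. With hybridisation controls as a covariate PTGES3-b became -0.127, PTGR1 -0.079 and PTGFR-a 0.559, PTGFR-a became 0.00 with arrays centred on their median, and PTGR1 became -0.007 under the deposited scaling. The hybridisation controls were nearly split by sperm type (9.82 to 10.06 against 9.65 to 9.82), so the covariate fit can hardly separate the 2. There the SE of PTGFR-a was 0.617, against 0.362 without the covariate. Leaving out 1 array or sow gave -0.333 to 0.39 for PTGES3-b, -0.009 to 0.357 for PTGDS, -0.255 to 0.237 for PTGFR-a and -0.042 to 0.073 for PTGR1, while PTGES and PTGES3-a stayed above 0 throughout. With the block, signs also turned without sow 1 for PTGFR-a (0.048), without sow 3 for PTGFR-a (0.187) and PTGR1 (-0.027) and without sow 4 for PTGES3-b (-0.019) and PTGR1 (-0.019). Between sows, 2 member probe sets passed, and 4 did with a pseudocount of 16, a floor at the background level, only probe sets above the median, only those above background (chosen after seeing the data, as was the block with that filter) or a trend. Leaving out 1 sow gave 0 (without sow 1) to 2, with 1 without sow 4. Without sow 2 those passing were PTGES3-b and a probe set not above background on all arrays, and without sow 3 they were PTGES3-b and PTGFR-a. The cause of these changes was not tested. With 4 arrays a group, the intervals of PTGES3-b and PTGFR reach close to a log2 change of 1 either way without the block.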
